A study of Mus musculus with 12 samples.

Results

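The genes described here are the 4 adult globin genes of the reference mouse genome (Hba-a1, Hba-a2, Hbb-bs and Hbb-bt) and Alas2, 5 of the 24060 genes in the deposited count table. They were chosen by symbol as hemoglobin and erythroid genes, with their levels in the pulldown and input libraries known, so the comparison of pulldown with input is given for them without a test. RNA came from the brain white matter of 6 male mice of the genotype Tie2-Cre:Rpl22-HA, which express an HA-tagged ribosomal protein in cells where Tie2-Cre was active. Mice 489, 555 and 556 ate chow with 10% of calories from fat (CFD), and mice 516, 517 and 676 ate chow with 60% of calories from fat (HFD). Each mouse gave 1 library of whole-tissue RNA (input) and 1 of RNA pulled down with an antibody to HA (IP), so there were 4 groups of 3 libraries. The promoter of Tie2 drives Cre in endothelium and also in blood-forming lineages, the methods name more than 1 Tie2-Cre strain, and neither age nor perfusion before dissection is given for these mice in the sources used here.

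Hemoglobin carries oxygen in red cells and is built from alpha chains, encoded by Hba-a1 and Hba-a2, and beta chains, encoded in C57BL/6-type mice by Hbb-bs and Hbb-bt. Alas2 makes the first enzyme of heme synthesis in red cell precursors, and Alas1 makes the form of that enzyme used by other cells. The mature red cell has no nucleus and no ribosomes, but reticulocytes in blood still hold globin and Alas2 mRNA.

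The alpha genes lie on chromosome 11 of GRCm38 (mm10), Hba-a1 at chr11:32283672-32284486 and Hba-a2 at chr11:32296492-32297310, both on the plus strand. The beta genes lie on the minus strand of chromosome 7, Hbb-bt at chr7:103812524-103813923 and Hbb-bs at chr7:103826523-103827928. Each of these 4 genes has 3 exons. The sequences of their second exons, which are wholly coding, were identical within each pair of genes (RefSeq, GRCm38, transcript strand). They are shown because a read that lies within them, taken without its mate, fits both copies.
Exon 2 of Hba-a1 (chr11:32283924-32284128) and of Hba-a2 (chr11:32296741-32296945): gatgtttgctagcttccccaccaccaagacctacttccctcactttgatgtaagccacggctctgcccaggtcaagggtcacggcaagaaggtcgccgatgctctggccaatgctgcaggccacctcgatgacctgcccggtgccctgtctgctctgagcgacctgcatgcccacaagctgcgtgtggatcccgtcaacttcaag
Exon 2 of Hbb-bs (chr7:103827448-103827670) and of Hbb-bt (chr7:103813439-103813661): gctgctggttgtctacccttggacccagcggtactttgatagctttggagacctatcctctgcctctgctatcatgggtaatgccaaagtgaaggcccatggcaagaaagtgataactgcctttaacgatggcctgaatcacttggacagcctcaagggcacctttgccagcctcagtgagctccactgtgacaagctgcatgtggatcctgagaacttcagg
All 205 bases of the alpha exon and all 223 bases of the beta exon matched, so no base is in capitals. Over the whole spliced transcript, Hba-a1 and Hba-a2 were 98.1% identical and Hbb-bs and Hbb-bt were 91.4% identical. Of the windows as long as 1 sequenced read (69 bases), 84.9% of those in Hba-a1, 80.4% in Hba-a2, 63.4% in Hbb-bs and 64.4% in Hbb-bt also occurred in a GENCODE M21 transcript of another gene. Windows were compared singly, so a read whose mate lies where the copies differ could still be placed. The table also has rows for Hbb-b1 and Hbb-b2, beta genes of another haplotype. Hbb-bs shared 280 of its 571 windows with Hbb-b1, which left 147 windows of Hbb-bs and 179 of Hbb-bt found in no other gene compared. How the counting treated reads that fit more than 1 gene is not given in the sources used here, so the globin values are uncertain as to copy.

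**Figure D1:**
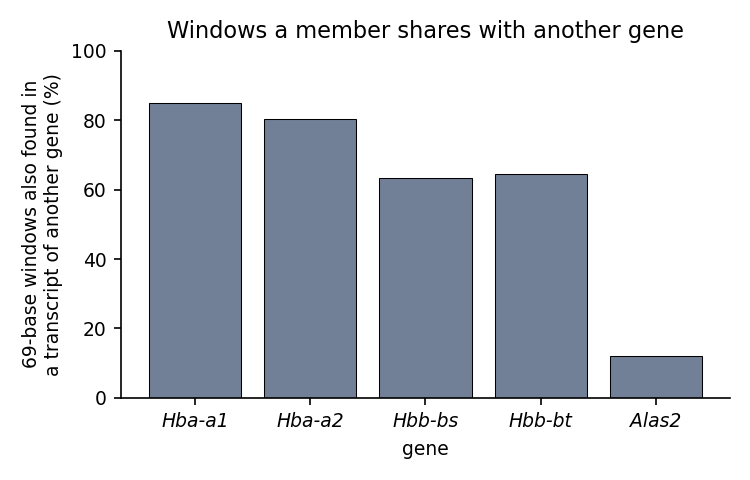
Percent of each member's 69-base windows that also occur in a transcript of another gene (vertical axis), by gene. The 4 globin bars stand between 63.4% and 84.9%, and the Alas2 bar at 11.9%.

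Globin counts were almost absent. Hba-a1, Hba-a2 and Hbb-bt had 0 counts in all 12 libraries, as did 23.9% of all genes in the table. Hbb-bs had 25 counts in HFD input 516, 2 counts in HFD input 676 and 0 in the other libraries. With library totals of 19567186 to 33660708 counts, a count of 0 allows at most 3 counts, or up to 0.168 CPM (counts per 1000000, scaled with TMM factors) in the library with the highest such limit. These limits cover counting error only, and they limit the counts assigned to a gene rather than its mRNA. The 25 counts of Hbb-bs were 0.918 per 1000000 of that library's total (95% Wilson interval 0.622 to 1.36). Only mouse 516 had an Hbb-bs level above the limit for a count of 0, and the IP library of the same mouse had 0 counts. The other globin rows were as low: Hba-x, Hbb-y, Hbb-bh2 and Hbb-b2 had 0 counts throughout, Hbb-b1 had at most 2 and Hbq1b had 19 counts in CFD input 556 and at most 1 elsewhere. Cygb and Ngb, globins of fibroblast-like cells and neurons, were the only globin rows past the filter on low counts.

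Alas2 held 2160 of the 2187 counts on the 5 genes (98.8%) and was the only one of them past the filter, which 14354 genes passed. It lies on the plus strand of the X chromosome (chrX:150547417-150570622) in 11 exons. The first exon, in the 5′ UTR, carries an iron-responsive element, a hairpin through which iron supply is known to control translation of ferritin, ferroportin and Alas2 mRNAs. The 30 bases around it are shown with those of 3 other mRNAs known for this element, since the pulldown samples ribosome-bound RNA (RefSeq, GRCm38, transcript strand, capitals mark the loop letters CAGTG).
Alas2 (chrX:150547455-150547484, plus strand): tctttggttcgtcctCAGTGcagggcaaca
Fth1 (chr19:9982729-9982758, plus strand): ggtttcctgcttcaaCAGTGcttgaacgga
Ftl1 (chr7:45459781-45459810, minus strand): tgtgtcttgcttcaaCAGTGtttgaacgga
Slc40a1 (chr1:45925467-45925496, minus strand): ttccaacttcagctaCAGTGttagctaagt
The search was for CAGTG followed by any base and with a C 6 bases before its first letter, on the transcript strand only. This pattern occurred in the first 300 bases of 12.1% of 58200 protein-coding GENCODE M21 transcripts, so a match to the letters is common and is a description only.

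In the CFD inputs Alas2 had 75, 588 and 583 counts in mice 489, 555 and 556, and in the IP libraries of the same mice it had 10, 5 and 10 counts. In the HFD inputs it had 174, 49 and 480 counts in mice 516, 517 and 676, and in their IP libraries 102, 1 and 83 counts. The IP value was below the input value in each of the 6 mice. The 3 CFD IP libraries lay below every input library of either diet, while the HFD IP libraries spread from below the CFD IP libraries to within the range of the inputs. Ordered by TMM-scaled level, the mean of CFD input was 15.1 ± 10.3 CPM, that of HFD input 7.89 ± 8.09 CPM, that of HFD IP 2.03 ± 1.80 CPM and that of CFD IP 0.440 ± 0.173 CPM (each SD, n = 3). In that order the range of each group overlapped with that of its neighbor. These ranges leave out the pairing of input and IP by mouse, so the order is a description only. The highest library was 6.61 times the lowest in CFD input, 9.62 times in HFD input and 107 times in HFD IP. The SD of log2(CPM + 0.5) within groups was 1.31 for Alas2, against a median of 1.0 over the 14354 genes. In whole tissue, fewer cells of a type and less RNA per cell cannot be told apart.

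**Figure D2:**
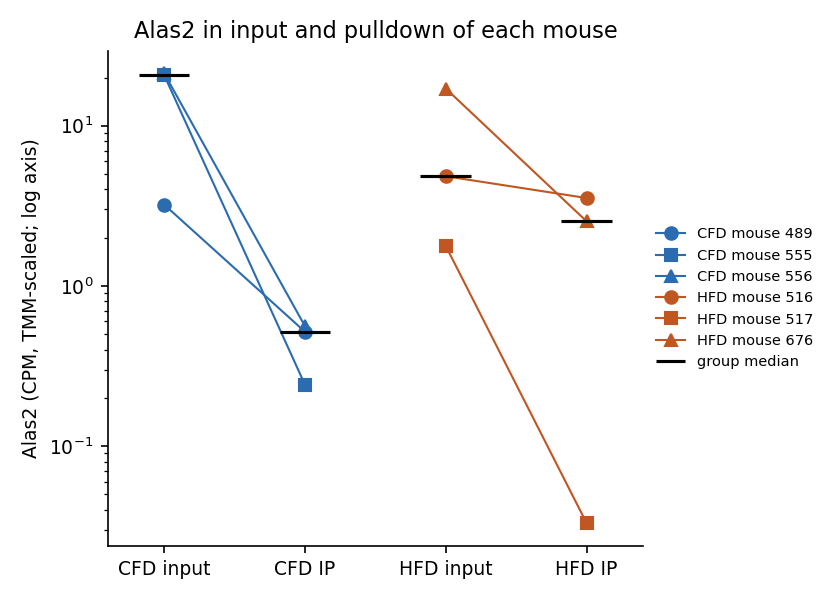
Alas2 level in CPM (log axis) in each of the 12 libraries, with a line joining input and IP of the same mouse and a black bar at each group median. All 6 lines fall from input to IP, and HFD IP 517, with 1 count, is the lowest point.

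The log2 ratio of IP over input, with 0.5 CPM added to both, was -1.87 in mouse 489, -4.84 in mouse 555 and -4.36 in mouse 556 on CFD. On HFD it was -0.40 in mouse 516, -2.09 in mouse 517 and -2.54 in mouse 676. The diet means were -3.69 ± 1.59 and -1.68 ± 1.13 (SD, n = 3). Of the genes tested, 4.15% were lower in IP than in input in all 6 mice. As a ratio of scaled counts without the added value, Alas2 in IP was 1.17% of input in mouse 555 (exact 95% interval 0.377% to 2.73%) and 73.1% of input in mouse 516 (56.7% to 93.9%). These intervals cover counting error only and not the spread between mice. The single IP count of mouse 517 gave 1.86%, with an interval from 0.0462% to 10.9%. Summing the 5 genes left the CFD ratios as they were, and changed that of mouse 516 to -0.58 through its Hbb-bs counts. Ribosomal RNA differed between the groups: the precursor gene Rn45s held 6.34% to 14.2% of counts in the inputs, 17.1% to 19.1% in HFD IP and 38.7% to 42.3% in CFD IP. CFD IP 489, 555 and 556 held 39.1%, 38.7% and 42.3%, with Alas2 ratios of -1.87, -4.84 and -4.36. HFD IP 516, 517 and 676 held 19.1%, 17.8% and 17.1%, with ratios of -0.40, -2.09 and -2.54. The order of the shares was thus that of the ratios on HFD but not on CFD. The part of Rn45s in the Alas2 ratios was not tested. With Rn45s and Lars2 left out, which changes only the scaling of the libraries, the diet means were -3.85 and -1.79.

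No difference of Alas2 between the diets was detected beyond the spread between mice. In input the edgeR log2 fold change of HFD against CFD was -0.93 (SE 1.46, adjusted p = 1.0), and the exact two-sided permutation test on log2(CPM + 0.5) gave p = 0.5 (n = 3 and 3), where the smallest possible p is 0.1. In IP the edgeR log2 fold change was 2.20 (SE 1.53, adjusted p = 0.597), and the exact permutation test gave p = 0.4. The IP value was 0.80 with the animal as a random block (limma) and 1.51 without mouse 516, and the input value was -2.19 without mouse 676. Here HFD IP 516 and 676 were above the CFD IP libraries and HFD IP 517 was below them, so the groups overlapped. The difference between the diets in IP over input was 3.13 on the log2 scale in edgeR (SE 2.11, adjusted p = 0.896), and 2.01 as a difference of mean log2 ratios, with an exact permutation p = 0.3. The edgeR value was 2.06 with the animal as a fixed block, 2.22 without mouse 516, 2.52 without mouse 555, 3.75 without mouse 489 and 4.20 without mouse 676. The p-values of the 3 permutation tests were 0.5 after Benjamini-Hochberg adjustment. With edgeR, 0 of the 5 genes were called at an adjusted p under 0.1 in the 3 comparisons, and Alas2 did not reach an unadjusted p of 0.05 in any. Over all genes tested, edgeR called 0% in input, 0.0557% in IP and 0% for the difference between fractions, and DESeq2 called 0.216%, 5.36% and 0.843% without calling Alas2.

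The label of erythroid genes was checked against other red cell genes. Gata1 and Gfi1b, transcription factors of the erythroid lineage, had 0 counts in all libraries, and Klf1 had 2 counts in 1 library. Rhag of the Rh complex had at most 2 counts. Counted over the whole lists, 4 of 9 erythroid transcription factors, 4 of 18 red cell membrane genes and 3 of 20 other erythroid genes had fewer than 10 counts in every library. Others in these lists were well counted. Lmo2, a factor also of endothelium, had 1977 counts in CFD input 555. Bpgm, an enzyme of glycolysis, had 2984 counts in the same library. Tal1 had counts in 7 of the 12 libraries, up to 814, and Epor in 9, up to 165. The share of all genes with fewer than 10 counts in every library was not counted. Of all 24060 genes, 23.9% had 0 counts throughout and 14354 passed the filter. The list counts under 10, here and below, are therefore a description only. The anion exchanger gene Slc4a1 had 420 counts in HFD input 517, which had 49 counts of Alas2 and none of Hbb-bs, and at most 6 counts elsewhere. Gata1, Gfi1b, Klf1 and Rhag were singled out after their counts were seen, so their low counts are a description. With 4 of the 5 genes themselves at or near 0, the set is named here by symbol and not as an erythroid signature. Neutrophil genes (10 of 12 with fewer than 10 counts in every library) and lymphocyte genes (9 of 10) were also near 0. The summed level of the 12 neutrophil genes was 1.07 to 11 CPM in CFD input, 2.17 to 5.81 in HFD input, 0.392 to 4.11 in CFD IP and 0.297 to 3.96 in HFD IP. For the 10 platelet genes it was 0.815 to 7.15, 2.14 to 8.17, 10.8 to 21.3 and 1.62 to 5.24 CPM in the same order. A different gene led the platelet sum in each CFD IP library. It was Gp5 in mouse 489 (353 counts), Gp1bb in mouse 555 (313) and Gp1ba in mouse 556 (181). Pf4 and Ppbp had at most 2 counts in those libraries. In the CFD inputs Csf3r held most of the neutrophil sum, with 22, 85 and 302 counts in mice 489, 555 and 556. Neither sum is read here as the level of a cell type, and the part of these genes in the Alas2 values was not tested.

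**Figure D3:**
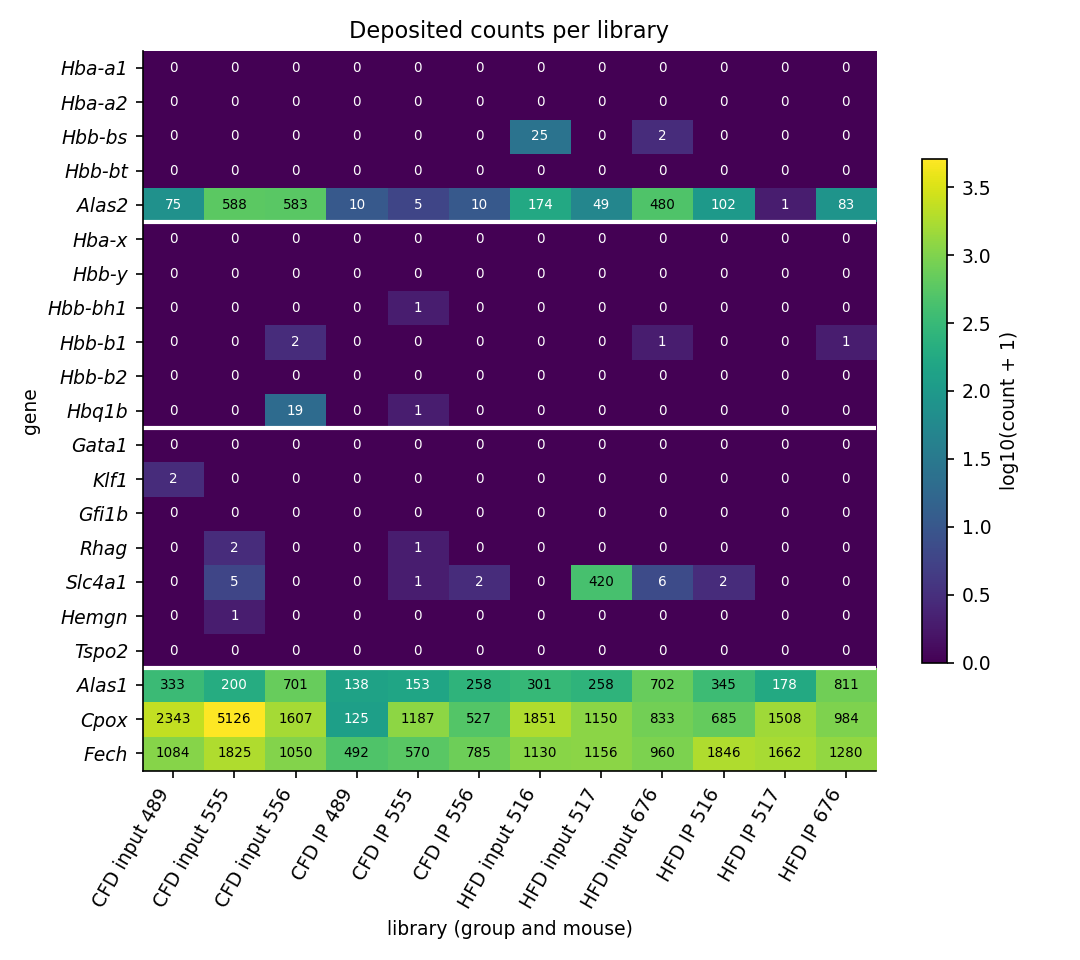
Deposited counts of the 5 genes (top block), other globins, red cell markers and 3 expressed heme enzymes (bottom block) in the 12 libraries, colored by log10(count + 1). The 4 globin rows are empty but for 25 and 2 counts of Hbb-bs, Alas2 is counted in every library, and Slc4a1 stands out in HFD input 517 with 420 counts.

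The gene next to Alas2 was examined for shared reads. RefSeq model transcripts of Apex2, a DNA repair gene on the opposite strand, overlap exons of Alas2. Of the 1911 windows of Alas2, 228 (11.9%) occurred in GENCODE M21 transcripts of Apex2, on one strand or the other. Whether the counting used strand is not given, so reads there cannot be told apart. Over the 12 libraries the log2 CPM of Apex2 had r = 0.590 and rho = 0.657 with that of the 5 genes summed, and 764 genes had a higher r. Apex2 had 0 counts in the 4 IP libraries with the fewest Alas2 counts, and also in CFD input 555, where Alas2 had 588 counts, and in HFD input 517. It had 687 counts in HFD IP 516, and 162 or fewer in the others. The part of shared reads in the Alas2 values was not tested. Curated RefSeq transcripts of other genes that encode protein covered 0 exon bases of Alas2, and the microRNA gene Mir3620 overlaps its first exon.

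Heme synthesis as a whole was well represented. All 14 genes of a heme synthesis list passed the filter. In IP against input, edgeR called 0 of them on either diet, beside 0.188% (CFD) and 0.0139% (HFD) of all genes. On CFD, DESeq2 called Cpox lower in IP (log2 fold change -1.84, adjusted p = 0.0735), beside 5.68% of all genes. With no filter on low counts, edgeR also called Cpox lower there (-1.86, adjusted p = 0.0919), and the share of all genes called in that fit is not reported here. The median log2 difference of IP over input over the list was -0.60 on CFD and 0.17 on HFD, against -0.01 in both over all genes tested. On the deposited per-length scale, Alas1 had a median of 3.94 FPKM over the 12 libraries (1.82 to 12.3) and Alas2 1.49 FPKM (0.0161 to 13). Levels per length of Alas2 exceeded those of Alas1 in CFD inputs 555 and 556, at 11.7 against 2.92 FPKM and 13 against 11.5 FPKM. In the other 10 libraries Alas1 was higher, by 1.07 times in HFD input 676 up to 130 times in HFD IP 517, where Alas2 rested on 1 count. Cpox and Fech, which act late in the pathway, had the highest medians among the enzymes at 13.9 and 15.8 FPKM.

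**Figure D4:**
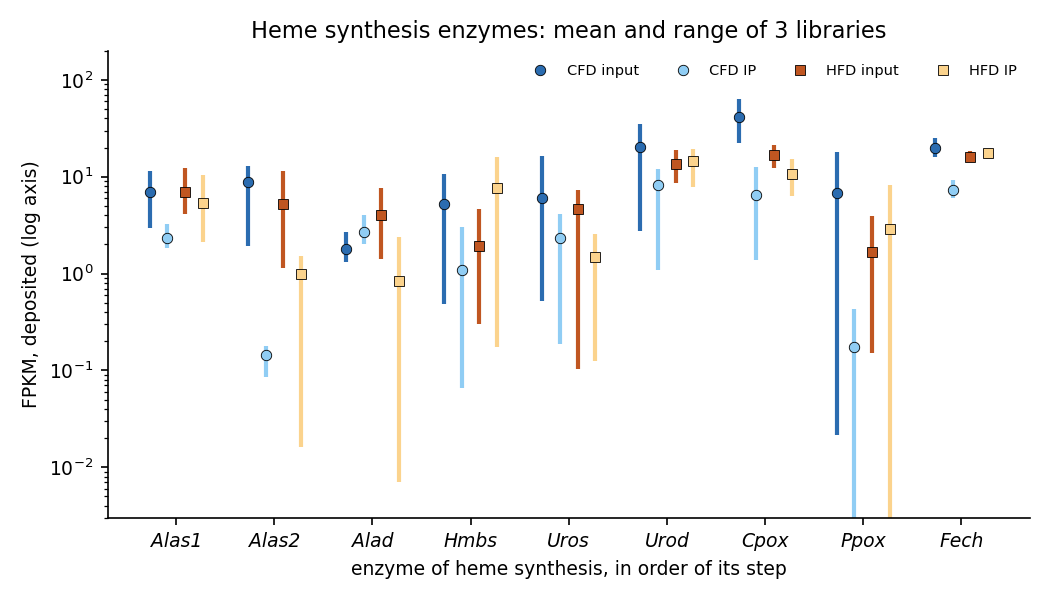
Deposited FPKM (log axis) of the 9 enzyme genes of heme synthesis, with the mean (symbol) and range (bar) of the 3 libraries of each group. Alas2 in CFD IP averages 0.145 FPKM, against 2.32 FPKM for Alas1, and the bars of Ppox that reach the axis include a library listed at 0.

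Among the 9 genes for the enzymes of the pathway, Alas2 alone was lower in IP than in input in all 6 mice. Alas1 was lower in 4 of 6, with mean log2 ratios of -0.56 ± 0.55 on CFD and -0.05 ± 0.56 on HFD (SD, n = 3). Cpox, the coproporphyrinogen oxidase, was also lower in 4 of 6, at -2.16 ± 1.51 and -0.28 ± 0.72. Fech, the ferrochelatase that inserts iron, was lower in 2 of 6, at -0.62 ± 0.73 and 0.53 ± 0.43. The difference between Alas2 and Alas1 was not tested, since Alas2 was chosen with its ratios known.

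**Figure D5:**
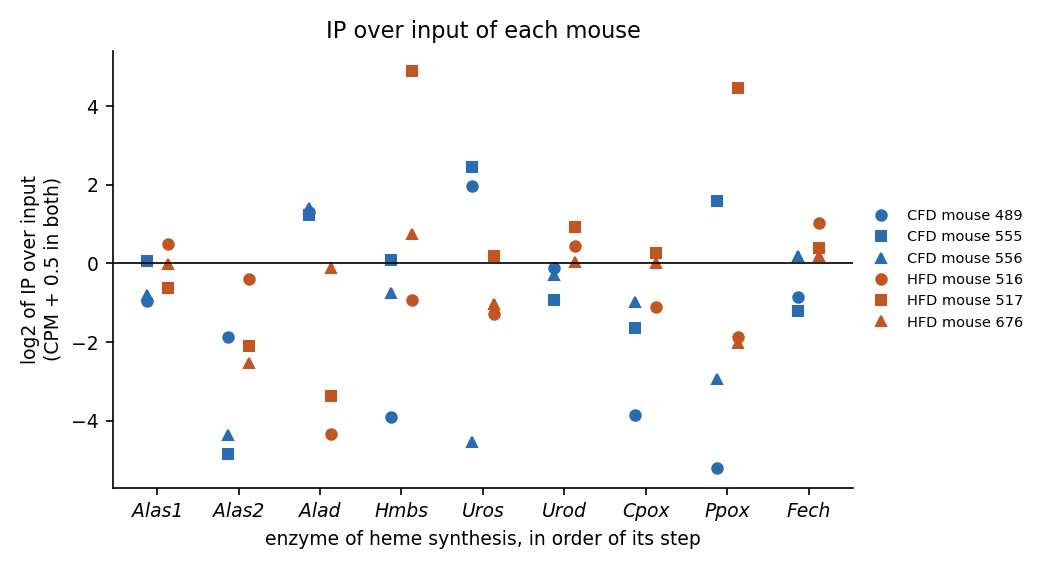
Log2 of IP over input (CPM + 0.5 in both) for the 9 enzyme genes, 1 point per mouse, blue for CFD and orange for HFD. All 6 points of Alas2 lie below 0, from -4.84 to -0.40, while the points of every other enzyme fall on both sides of 0.

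Besides the 5 genes, 11 lists were counted, of globins, heme synthesis, erythroid factors, red cell membrane, other erythroid genes and heme clearance, and of neutrophil, platelet, lymphocyte, endothelial and choroid plexus genes. They hold 140 genes, of which 80 passed the filter. In IP against input on CFD, edgeR called 1 of them higher and 0 lower, and on HFD it called 0. The called gene was Ank1, an ankyrin of the red cell membrane that neurons also express, with a log2 fold change of 2.69 (SE 0.58, adjusted p = 0.0845). Ank1 rose from 26.3 ± 21.5 CPM in CFD input to 170 ± 65.8 CPM in CFD IP (SD, n = 3), the inputs spanning 6.21 to 49.1 CPM and the IP libraries 97.9 to 227 CPM without overlap. With the animal as a block, 4 of the listed genes were called on CFD, and the share of all genes called there is not reported here. They included Ank1 and the spectrin gene Sptb, both higher in IP, and the choroid plexus gene Ttr, which was lower. DESeq2 called 7 listed genes on CFD and 0 on HFD, with 5.68% and 1.11% of all genes called. On HFD it gave an adjusted p to only 10 of the 80 listed genes and 1274 of all genes. Of those 1274 it called 160, and its count of 0 listed genes there covers the 10 only. Ank1 was not called when any 1 of the 3 CFD mice was left out (0 listed genes called in each case). At an unadjusted p under 0.05 there were 13 listed genes on CFD and 3 on HFD, where 11.8% and 6.51% of all genes tested fell under it.

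Of the 138 listed genes outside the 5 that had a row, 41 averaged more than 10 CPM over the 12 libraries. The ferritin heavy chain gene Fth1, which stores iron, was at 1386 ± 213 CPM in CFD input and 1025 ± 233 CPM in CFD IP, and its log2 fold change of -0.44 (SE 0.27) had an adjusted p of 0.539 in edgeR. Add2, which encodes the beta adducin of the membrane skeleton, had 7907 to 15082 counts in every library, and Car2, a carbonic anhydrase also of oligodendrocytes, had 2224 to 13591. In the diet comparisons edgeR called 0 of the 80 listed genes in input, in IP or for the difference between fractions, and at an unadjusted p under 0.05 there were 3, 10 and 5, beside 2.03%, 10.9% and 5.36% of all genes. DESeq2 called 1, 4 and 0 listed genes, beside 0.216%, 5.36% and 0.843% of all genes. The endothelial list, the cell type that the pulldown was aimed at, gave 0 of 14 genes called by edgeR in IP against input on either diet. DESeq2 called Cldn5 on CFD and edgeR with no filter on low counts called Egfl7 there, and both calls rest on CFD IP 556. Cldn5 had 9 counts in that library and 0 in every other CFD library. Egfl7 had 3650 counts in it, 37 and 25 in CFD IP 489 and 555, and 5, 147 and 370 in the CFD inputs. The endothelial list had median log2 differences of -0.07 on CFD and -0.29 on HFD.

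The 8 genes whose log2 CPM over the 12 libraries most resembled that of the 5 genes summed were Upf3b, Rpf2, Lcorl, Srsf7, Spef2, Triap1, Zfp931 and Usp3, with Pearson r from 0.858 to 0.881. Upf3b, a factor of nonsense-mediated decay, led with r = 0.881 and Spearman rho = 0.846. These 12 libraries come from 6 mice and share depth and fraction, and the 8 genes were ranked out of all those that passed the filter. Like Alas2, each of the 8 had lower counts in HFD IP 517 than in HFD IP 516 and 676. Within the 6 inputs alone, r ranged from -0.37 for Rpf2 to 0.79 for Upf3b. Alas1 had r = 0.546, and 1124 genes had a higher r. None of the 8 belongs to the lists of globin, heme or red cell genes.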

How the data were processed

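RNA of input and anti-HA IP was sequenced with 69-base paired reads and, per the labels, processed by the authors with STAR (mm10) and HTSeq to deposited counts per gene, beside FPKM values that the authors computed from them. The library kit differs between the labels and the methods. The authors' normalized counts, fold changes, p-values and FDR of their own comparisons were not used. Counts were fitted with edgeR 4.0.16 (TMM, filterByExpr with a minimum count of 10, quasi-likelihood test over 4 group means, Benjamini-Hochberg over all genes, adjusted p under 0.1 called) and, as alternatives, with DESeq2 1.42.0 and limma 3.58.1 in R 4.3.3. The fit was tested on simulated data. CPM used TMM-scaled library sizes, and 4 listed genes were matched by an older symbol while 2 had no row. IP and input with the same number in the labels were taken as 1 mouse. The correlation of their deviations from the group means was 0.0064 to 0.19 over 6 pairs. For mice 516 and 556 the input of another mouse on the same diet gave a higher value, so the pairing rests on the labels. Members and gene lists were chosen with earlier results of these data known. Named genes were the 5 members, listed genes of highest level or called, and the 8 of most similar pattern. Where nothing else is said, p-values of edgeR and DESeq2 measure only the spread between libraries of these mice within a group. Those fits had no term for the mouse, so its input and IP entered as separate libraries. The permutation tests used 1 value per mouse. Values of some listed genes are not reported here.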

Additional observations from a re-analysis of the deposited data

Results flagged for a closer look

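Of 89 listed or similar genes past the filter, 3 had log2 ratios of IP over input of one sign in all 3 CFD mice and of the other sign in all 3 HFD mice. The share of all genes tested with such signs was not counted, so these 3 are a description only. Alad, the second enzyme of heme synthesis, averaged 1.32 ± 0.09 on CFD and -2.61 ± 2.21 on HFD (SD, n = 3), a difference of -3.93, and the edgeR interaction of diet and fraction was not called (adjusted p = 0.896). In HFD IP Alad had 24, 1 and 312 counts in mice 516, 517 and 676, so its HFD ratios are imprecise. Urod, the uroporphyrinogen decarboxylase, averaged -0.45 ± 0.43 and 0.47 ± 0.45, a difference of 0.914 (edgeR interaction, adjusted p = 0.968). Ttr, a choroid plexus gene, averaged -0.98 ± 0.29 and 0.32 ± 0.22, a difference of 1.30 (edgeR interaction, adjusted p = 0.933). Alas2 had a ratio below 0 in all 6 mice. Groups of 3 libraries were not tested for outliers.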

How the results depend on the processing

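The count of members called by diet, or for the difference between fractions, stayed at 0 under RLE scaling, no filter on low counts, DESeq2, Rn45s and Lars2 left out, each mouse left out, the animal as a block and a threshold of 0.05. The stricter threshold could not raise that count, and only Alas2 was tested, save with no filter, which added Hbb-bs. The Alas2 log2 fold change kept its sign in all 12 alternatives of each comparison, from -2.19 to -0.46 in input, 0.80 to 2.77 in IP and 2.06 to 4.20 for the difference. The threshold of 0.05 is counted among the 12, although it cannot change a fold change. In IP the lowest value, 0.80, came with the animal as a random block (adjusted p = 0.941, limma). That setting also replaced the edgeR fit of counts by a limma fit of log2 values. The correlation it estimated between libraries of 1 mouse was 0.0641. As a plain difference of mean log2(CPM + 0.5), HFD IP minus CFD IP was 1.01. The cause of the lower value was not tested. The block changed no call among the members. The mean Alas2 log2 ratio of IP over input lay between -4.60 and -2.53 on CFD and between -2.32 and -1.09 on HFD under the other scalings, pseudocounts of 0.1 and 2 CPM and with each mouse left out. Listed genes called in IP against input on CFD numbered 6 with no filter, 7 with DESeq2, 4 with the animal as a replicate block, and 0 to 2 with 1 mouse left out, against 1. On HFD the count was 0 throughout, although DESeq2 gave an adjusted p to only 10 of the 80 listed genes there. For the globins at 0, depth allows no more than that under 3 counts per library were assigned to the gene, and 1 to 10 IP counts of Alas2 in 4 libraries make those ratios imprecise.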
